A study of Mus musculus with 15 samples.

Results

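Cytochrome P450 families 2, 3 and 4 hold most of the enzymes with which the liver oxidises drugs, steroids, fatty acids and bile acids. They were followed here by array in mouse hepatocytes before and during culture. A gene belonged to the group when 1 probe set or more carried its symbol alone and the symbol was that of a gene in family 2, 3 or 4, such as Cyp2e1, Cyp3a11 or Cyp4a14. Of 18193 genes with a probe set of this kind, 51 met the rule: 35 in family 2, 5 in family 3 and 11 in family 4. Where a gene had several probe sets (10 of the 51), the one with the largest SD over the 15 arrays was used. A filter on probe sets that only followed the array background left 41 of the 51. The other 10 (Cyp2b13, Cyp2b19, Cyp2c39, Cyp2c65, Cyp2d34, Cyp2j11, Cyp2j13, Cyp3a16, Cyp4f18 and Cyp4x1) stayed between -0.26 and 0.44 on every array, with SDs from 0.0249 to 0.146, and were not tested. By the same limits 4 of the 41 would have counted as background over the 12 arrays outside 1 group: Cyp2s1 without TCD 24 h, Cyp3a44 without the fresh arrays, and Cyp2d10 and Cyp3a11 without RWV 4 h. Their calls stand in the counts below but add no support to them.

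The cells were primary hepatocytes of male C57BL/6 mice, whose age the labels do not state. Fresh cells (t0) served as the baseline. Cultures lasted 4 h or 24 h in 1 of 2 vessels. The tissue culture dish (TCD) gave monolayers, and the rotating wall vessel (RWV), a turning chamber that keeps cells suspended, gave 3D aggregates. Each of these 5 groups had 3 arrays, described as independent biological replicates. Every value below is a log2 change from the median of the fresh arrays, because that median had been subtracted before deposit: the fresh level of a gene is not known, and levels of different genes cannot be ranked. An error after ± is the standard error of the limma fit (n = 3 arrays per group), and a gene is called where its Benjamini-Hochberg adjusted p over 12157 genes was below 0.05.

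P450 enzymes of these families sit in the membrane of the endoplasmic reticulum, carry a haem group and take electrons from P450 oxidoreductase and cytochrome b5. Hepatocytes are the main site of most of them. Their genes are kept active by liver-enriched transcription factors such as HNF4A and C/EBPα, and many are induced through the nuclear receptors PXR (gene Nr1i2), CAR (Nr1i3) and PPARα (Ppara). Loss of P450 expression is a well known feature of hepatocytes in culture.

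The series as a whole carried some technical differences. The deposited values hold no absolute level, so the presence of hepatocyte markers could not be checked in fresh cells; 7 of 8 listed markers (Alb, Apoa1 and others) were on the array and varied above background. Their array means lay from -1.10 to -1.03 in TCD and from -1.17 to -1.01 in RWV at 24 h. Markers of other cells moved too: the array means of 4 cholangiocyte markers were 4.35 to 5.50 in TCD and 1.56 to 2.50 in RWV at 24 h, those of 3 stellate cell markers 1.76 to 1.93 and -0.05 to 0.66, those of 9 macrophage markers 0.66 to 1.64 and 0.77 to 2.82, and those of 5 endothelial markers -0.50 to -0.32 and -0.99 to -0.37. As a measure of RNA quality, the gap between the 3' and 5' probe sets for Actb was -0.45 to -0.43 in TCD and -0.26 to -0.22 in RWV at 24 h against -0.10 to 0.00 in fresh cells. The gap for Gapdh hardly moved, at -0.05 to -0.01 in TCD and -0.06 to -0.05 in RWV against -0.07 to 0.00. On TCD 4 h replicate 2 the hybridisation controls stood at 1.08, against -0.73 to 0.18 on the other arrays, and limma gave it a weight of 0.168, the lowest of the 15. The part of these differences in the results below was not tested. In RNA from mixed cells, a smaller share of hepatocytes and less P450 RNA per hepatocyte cannot be told apart.

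Promoter sequences were taken from RefSeq (GRCm38.p6) in windows from 250 bases before to 50 bases after a transcript's start. Of the 51 genes, 40 matched, with 46 promoters. In the lines that follow, the 250 bases before the start are printed 5' to 3' on the gene's strand, and capitals mark matches on either strand to CAAAG, to the longer CAAAGTCCA that contains it (a form of the HNF4 binding motif) and to the TATA box TATAAA. The first pair are members of the Cyp4f cluster on chromosome 17 that changed in opposite directions in culture.
Cyp4f16, chr17:32536307-32536556, plus strand: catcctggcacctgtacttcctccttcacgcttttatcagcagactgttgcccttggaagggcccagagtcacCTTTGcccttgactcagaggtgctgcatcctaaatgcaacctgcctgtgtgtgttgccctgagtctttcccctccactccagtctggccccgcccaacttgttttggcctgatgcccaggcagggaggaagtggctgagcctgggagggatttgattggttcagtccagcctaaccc
Cyp4f15, chr17:32685409-32685658, plus strand: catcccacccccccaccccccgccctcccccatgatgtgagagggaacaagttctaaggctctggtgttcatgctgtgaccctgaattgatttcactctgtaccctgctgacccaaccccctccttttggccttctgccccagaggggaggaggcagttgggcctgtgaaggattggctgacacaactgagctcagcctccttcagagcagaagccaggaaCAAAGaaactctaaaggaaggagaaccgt
The next pair carry CAAAGTCCA. Cyp3a11 is the main PXR-inducible family 3 enzyme of mouse liver, and Cyp2c70 makes the muricholic acids of mouse bile.
Cyp3a11, chr5:145879855-145880104, minus strand: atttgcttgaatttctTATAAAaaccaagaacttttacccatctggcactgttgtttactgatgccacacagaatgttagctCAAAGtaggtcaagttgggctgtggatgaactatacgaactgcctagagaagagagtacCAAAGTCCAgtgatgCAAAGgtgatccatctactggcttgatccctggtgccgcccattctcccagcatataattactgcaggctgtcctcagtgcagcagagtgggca
Cyp2c70, chr19:40187287-40187536, minus strand: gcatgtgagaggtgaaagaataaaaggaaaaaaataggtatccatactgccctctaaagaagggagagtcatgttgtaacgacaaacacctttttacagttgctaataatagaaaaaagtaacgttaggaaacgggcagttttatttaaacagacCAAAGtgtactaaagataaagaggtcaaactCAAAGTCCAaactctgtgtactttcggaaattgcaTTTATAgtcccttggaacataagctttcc
The last pair hold more than 10 CpG dinucleotides, as few member promoters did: Cyp2r1, the 25-hydroxylase of vitamin D, and Cyp2s1, an enzyme best known from epithelia outside the liver.
Cyp2r1, chr7:114562973-114563222, minus strand: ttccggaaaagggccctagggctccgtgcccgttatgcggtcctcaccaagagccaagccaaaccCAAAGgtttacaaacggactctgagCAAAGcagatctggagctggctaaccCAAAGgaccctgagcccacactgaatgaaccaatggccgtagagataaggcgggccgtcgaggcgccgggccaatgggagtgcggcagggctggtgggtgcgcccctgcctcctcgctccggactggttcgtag
Cyp2s1, chr7:25816526-25816775, minus strand: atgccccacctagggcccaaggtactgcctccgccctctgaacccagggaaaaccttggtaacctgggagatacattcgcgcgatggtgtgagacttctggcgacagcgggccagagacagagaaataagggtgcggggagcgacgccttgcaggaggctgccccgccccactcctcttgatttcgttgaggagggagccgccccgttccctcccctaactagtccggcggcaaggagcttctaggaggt
Over the full windows, 8 motifs were searched on both strands. CAAAGTCCA was in 5 of 46 member promoters (10.9%) and in 0.475% of all 32851 promoters of the table, and its core CAAAG in 41 (89.1%) and 53.9%. TATAAA was in 16 (34.8%) and 13.6%, the C/EBP motif TTGCNNAA in 12 (26.1%) and 10.8%, and the NFI motif TTGGCA in 12 (26.1%) and 14.1%. The CAR and PXR core AGTTCA was in 5 (10.9%) against 14.0% of all promoters. GTTAAT, part of the HNF1 motif, was in 3 (6.52%) against 7.10%, and the E-box CACGTG in 2 (4.35%) against 7.15%. A member promoter held a median of 2 CpG dinucleotides against 7 over the table, and more than 10 in 4 members (Cyp2r1, Cyp2s1, Cyp4f39 and Cyp4v3) against 41.4% of all promoters. Members of a subfamily share sequence, so these counts are not over independent promoters, and a match is a description of the letters only.

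After 24 h most of the measured P450 genes were lower than in fresh hepatocytes in both vessels, and 1 gene, Cyp4f16, was higher in both. In TCD 31 of 41 members were lower and 2 higher, where 57.4% of all genes were called, 23.8% lower and 33.6% higher. In RWV 29 were lower and 1 higher, where 51.1% of all genes were called, 19.6% lower and 31.5% higher. The median member change was -1.49 in TCD and -1.54 in RWV, beside 0.01 and 0.04 over all genes tested. When each array was centred on the median of 11 reference genes, the median of all genes shifted by -0.61 in TCD and by -0.64 in RWV. The members then split into 35 lower and 1 higher in TCD, with 53.5% of all genes lower, and into 36 and 1 in RWV, with 52.8% lower. The TCD and RWV comparisons use the same fresh arrays, and their values are given side by side for that reason.

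Of the 41 members, 28 were called lower in both vessels, 3 in TCD and not in RWV, 1 in RWV and not in TCD, and 7 were called in neither. Taken singly, TCD had 23.8% of all genes lower and RWV 19.6%. Among the 28 called lower in both vessels, falls were at least 2-fold in both for 20 members and at least 8-fold for 4. These 4 were Cyp2d13, Cyp2j5, Cyp2u1 and Cyp4f15. The sizes are those of the probe set with the largest SD. The other probe sets of Cyp2d13, Cyp2j5 and Cyp2u1 fell by less, as given below. The values of all 3 TCD arrays lay below all 3 fresh ones for 36 members, where 39.5% of all genes did so, and those of all 3 RWV arrays for 38, where 35.7% did.

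**Figure D1:**
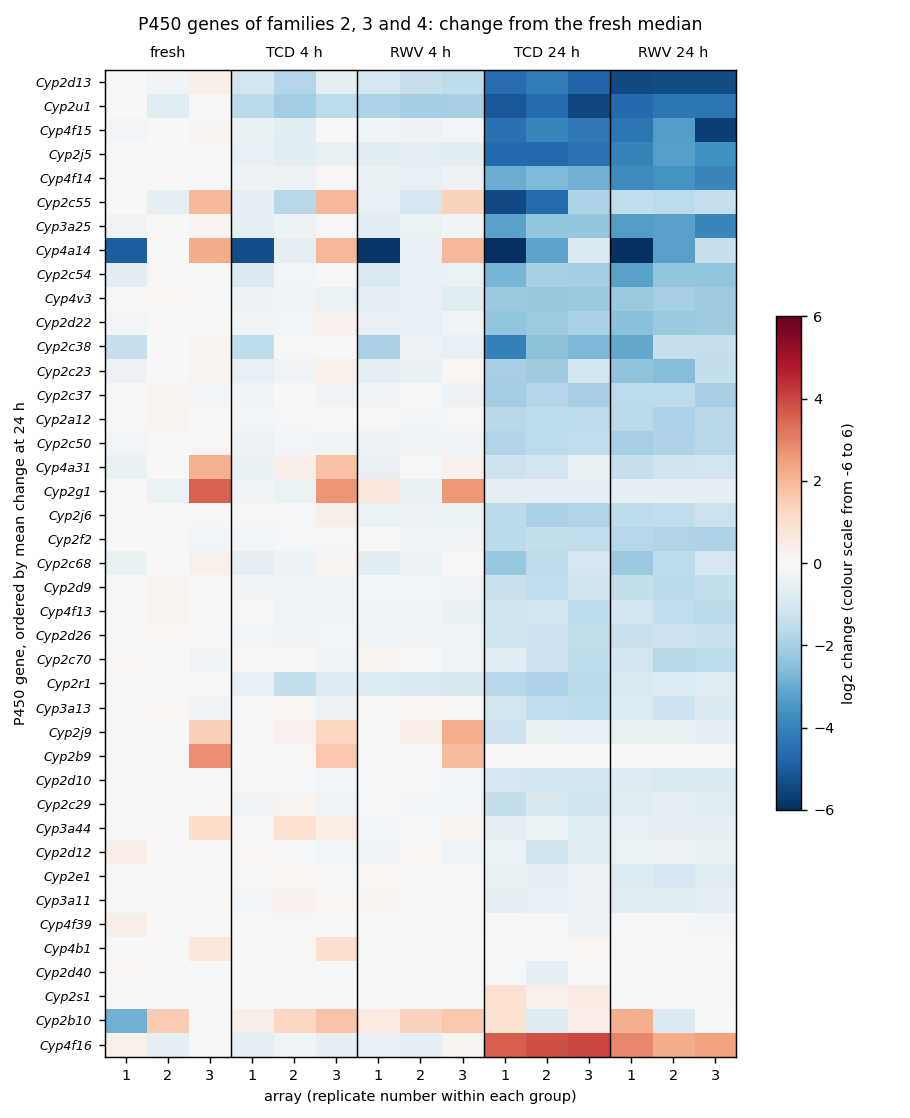
Each row is a P450 gene, each column an array (replicate 1 to 3 within fresh, TCD 4 h, RWV 4 h, TCD 24 h and RWV 24 h), and the colour is the log2 change from the fresh median, limited to the range of the colour bar. The blue rows at 24 h outnumber the others, with Cyp2d13 and Cyp2u1 in the top rows and Cyp4f16 as the red row at the foot; Cyp4a14, Cyp2b9 and Cyp2g1 show differences between replicates of 1 group.

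Family 2 held 22 members lower in TCD and 20 in RWV, of 28 tested, beside 23.8% and 19.6% of all genes. In RWV the deepest fall was that of Cyp2d13, of the Cyp2d cluster. Cyp2d13 read -4.59, -4.18 and -4.83 in TCD and -5.41, -5.36 and -5.36 in RWV at 24 h, against -0.23 to 0.34 in fresh cells. The fitted changes were -4.57 ± 0.27 and -5.41 ± 0.27 (limma adjusted p = 3.21e-08 and 1.15e-08), so that 4.21% and 2.35% of the fresh signal remained. Its other probe set gave -2.95 and -3.31, the same direction with a smaller size.

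Cyp2u1, an omega-hydroxylase of long-chain fatty acids, read -5.07, -4.62 and -5.47 in TCD and -4.67, -4.35 and -4.36 in RWV, with fresh arrays at 0.00, -0.74 and 0.01. Its changes were -4.81 ± 0.241 and -4.22 ± 0.241, and 3.56% and 5.37% of the fresh signal remained. The probe sets of Cyp2u1 disagreed in size, since the other one gave -0.50 and -0.51 with 95% intervals that reached 0.05 and 0.04. The fall of Cyp2u1 is therefore that of 1 probe set.

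Cyp2j5 encodes an epoxygenase of arachidonic acid. It read -4.68, -4.67 and -4.42 in TCD and -4.01, -3.31 and -3.65 in RWV, while the fresh arrays stayed between -0.11 and 0.03. All 24 h arrays lay far below the fresh ones, and the 3 TCD arrays below the 3 RWV arrays. The changes were -4.56 ± 0.151 and -3.63 ± 0.151 (limma adjusted p = 4.09e-10 and 3.26e-09). The second probe set of Cyp2j5 fell less, by -2.14 and -1.80, in the same order.

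The Cyp2c genes, whose enzymes oxidise arachidonic acid and many drugs, were lower for 9 of 9 tested in TCD and for 7 in RWV. Of all genes, 23.8% and 19.6% were lower. With the replicate number as a block, Cyp2c38 (-1.55) and Cyp2c55 (-1.94) were also called lower in RWV (limma adjusted p = 3.87e-07 and 0.0142). The numbers did not meet the criterion for pairing in that comparison. Cyp2c29 fell by 1.20 in TCD and by 0.68 in RWV on the log2 scale. Cyp2c70 read -0.70, -1.25 and -1.51 in TCD and -1.14, -1.66 and -1.56 in RWV, changes of -1.12 ± 0.208 and -1.42 ± 0.208. Cyp2c55 had wider spread: -5.41, -4.63 and -1.88 in TCD and -1.50, -1.59 and -1.36 in RWV, with fresh arrays at 0.00, -0.57 and 1.94. It was called in TCD (-4.43 ± 1.06, limma adjusted p = 0.00312) and not in RWV (-1.94 ± 1.06, adjusted p = 0.151). The RWV minus TCD difference of Cyp2c55, 2.49 with a 95% interval from 0.17 to 4.81, did not pass the test (limma adjusted p = 0.15). Its RWV arrays all lay above its TCD arrays at 24 h, as for 20.1% of all genes.

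Cyp2f2, which activates naphthalene and marks periportal hepatocytes, read -1.64, -1.41 and -1.48 in TCD and -1.69, -1.82 and -1.90 in RWV. Cyp2d9, a male-predominant testosterone hydroxylase, read -1.33, -1.47 and -1.19 in TCD and -1.42, -1.64 and -1.43 in RWV. Both genes were lower than in fresh cells on every 24 h array. The periportal list held Cyp2f2 alone. Of the pericentral list (Cyp2e1, Cyp2c29, Cyp2c37, Cyp2c50, Cyp2c54 and Cyp3a11 tested), 6 of 6 fell in each vessel, with medians of -1.40 in TCD and -1.30 in RWV. Over all genes 23.8% were lower in TCD and 19.6% in RWV. Smaller falls in both vessels, by less than 1 on the log2 scale, were those of Cyp2d12, Cyp2e1, Cyp3a11 and Cyp3a44. The calls of Cyp3a11 and Cyp3a44 add no support here, since each passed the filter through 1 group only (RWV 4 h and fresh). Both calls of Cyp3a44 were lost with only the arrays compared in the fit (limma adjusted p = 0.0664 in TCD and 0.072 in RWV). The call of Cyp2d12 in RWV (-0.51 ± 0.192, limma adjusted p = 0.0428) was lost in 7 of the 15 fits that left out 1 array (t0 replicate 1 or 2, RWV 4 h replicate 3, TCD 24 h replicate 3 or any 1 of RWV 24 h), at adjusted p up to 0.16.

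Cyp2b10, the classic target gene of CAR, was not called in either vessel. Its fresh arrays read -2.87, 1.54 and 0.00. At 24 h it read 0.92, -0.79 and 0.39 in TCD and 2.20, -0.86 and 0.03 in RWV, so the groups overlapped widely. The changes were 0.61 ± 0.999 and 0.90 ± 0.999, with 95% intervals from -1.56 to 2.79 and from -1.28 to 3.07. All 3 probe sets of Cyp2b10 gave changes of like size.

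In family 3 all 4 tested genes were called lower in both vessels, beside 23.8% of all genes in TCD and 19.6% in RWV. For Cyp3a11 and Cyp3a44 these calls add no support, since each passed the filter through 1 group only (RWV 4 h and fresh). Cyp3a11 fell the least, from 0.07 or less in fresh cells to -0.57, -0.48 and -0.34 in TCD and -0.67, -0.65 and -0.52 in RWV. Its changes of -0.47 ± 0.112 and -0.62 ± 0.112 left 72.0% and 65.0% of the fresh signal. Cyp3a25, which follows Cyp3a11 in the order of the members of the Cyp3a cluster, fell by far more. It reached -3.22, -2.32 and -2.34 in TCD and -3.35, -3.23 and -3.91 in RWV. It kept 16.6% and 9.06% of its fresh signal. Cyp3a13 lies apart from that cluster. It read -1.11, -1.47 and -1.55 in TCD and -0.81, -1.25 and -0.88 in RWV, and fell by 1.34 ± 0.168 and 0.94 ± 0.168 on the log2 scale.

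Family 4, the fatty acid omega-hydroxylases, had 5 of 9 tested members lower and 1 higher in each vessel. Of all genes, 23.8% were lower and 33.6% higher in TCD, and 19.6% and 31.5% in RWV. The Cyp4f enzymes inactivate leukotriene B4 and related eicosanoids. Cyp4f18, which was at background, lies on chromosome 8. The other Cyp4f members form a cluster on chromosome 17 in the order Cyp4f39, Cyp4f16, Cyp4f15, Cyp4f14 and Cyp4f13. Genes outside the rule were left out of this order. Along this cluster the TCD changes were -0.33, 3.88, -4.23, -2.84 and -1.31, and the RWV changes were -0.22, 2.59, -4.46, -3.76 and -1.44. All were called except that of Cyp4f39 in RWV. Cyp4f39 was called in TCD (limma adjusted p = 0.0302), but not without TCD 24 h replicate 3 or without t0 replicate 1 (adjusted p from 0.122 to 0.13). Cyp4f16 and Cyp4f15, whose promoters are printed above, thus changed in opposite directions on the same arrays.

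Cyp4f16 read 3.58, 3.82 and 4.00 in TCD and 2.90, 2.21 and 2.43 in RWV, against 0.31, -0.55 and 0.00 in fresh cells. Its changes were 3.88 ± 0.255 and 2.59 ± 0.255 (limma adjusted p = 7.26e-08 and 3.62e-06), a 14.8-fold and a 6.03-fold rise. At 4 h the 6 cultured arrays had lain between -0.56 and 0.15. The other probe set of Cyp4f16, whose sequence is shared with further transcripts, rose by less, 0.93 in TCD with a 95% interval from -0.05 to 1.91 and 1.52 in RWV with one from 0.53 to 2.50. Cyp4f15 went the opposite way, to -4.48, -3.91 and -4.28 in TCD and -4.34, -3.36 and -5.64 in RWV.

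Cyp4v3, the mouse counterpart of the fatty acid hydroxylase CYP4V2, read -2.21, -2.25 and -2.22 in TCD and -2.23, -2.01 and -2.19 in RWV. All 6 arrays lay below the fresh ones, and the other probe set of Cyp4v3 gave -1.72 and -1.71. Cyp4a31 was called in RWV and not in TCD (-1.80 ± 0.627, limma adjusted p = 0.0298, against -1.49 ± 0.627 and 0.0588 in TCD). That call was lost without t0 replicate 3 or without any 1 of the 3 RWV 24 h arrays, at adjusted p up to 0.125. The difference between vessels for Cyp4a31 was -0.30, with a 95% interval from -1.67 to 1.06.

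**Figure D2:**
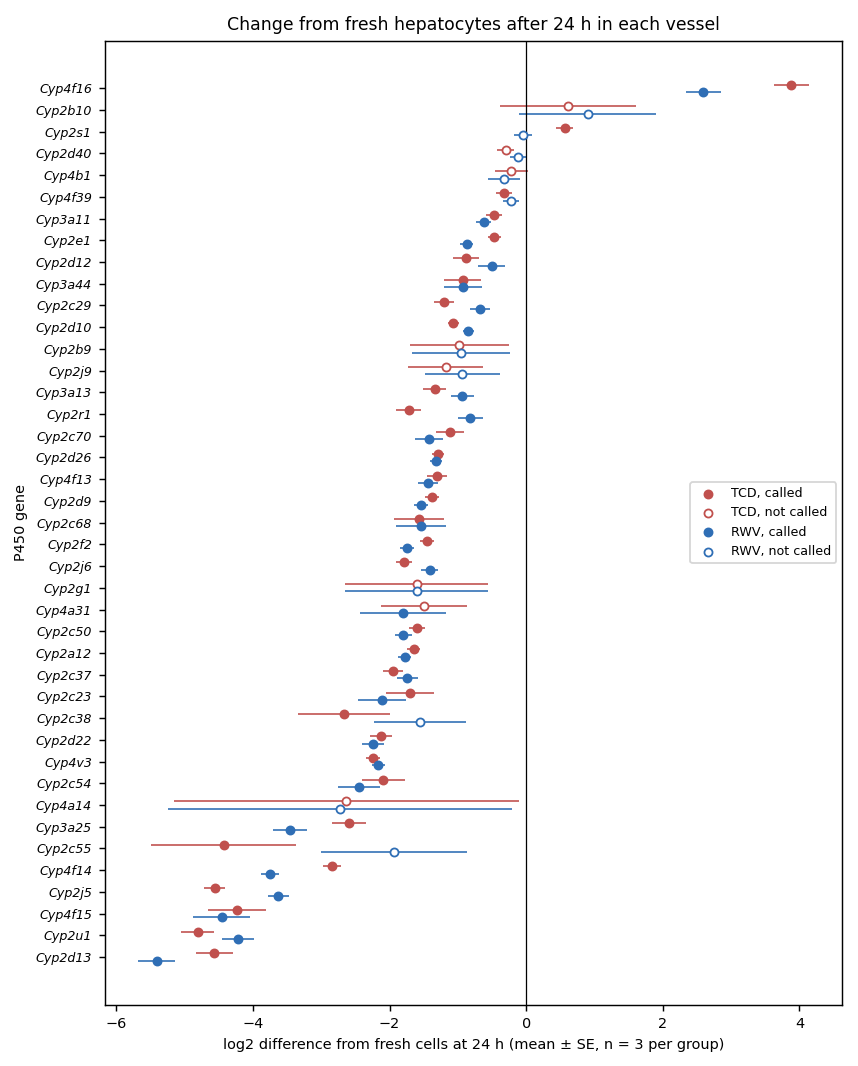
The x axis is the log2 difference between cells cultured for 24 h and fresh cells (mean and SE of the limma fit, 3 arrays per group), with 1 row per P450 gene and filled points where the gene was called. Nearly all points lie left of 0 in both vessels; Cyp4f16 stands alone at the right with 3.88 in TCD and 2.59 in RWV.

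Most of this fall came after 4 h. At 4 h, 5 members were called in TCD against fresh cells, each of them lower, where 26.1% of all genes were called, 16.3% lower and 9.78% higher. In RWV 8 were called, again each lower, where 30.1% of all genes were called, 14.7% lower and 15.5% higher. As shares of the 41 tested these are 12.2% and 19.5% lower, near the shares over all genes. The median member change was -0.16 in TCD and -0.27 in RWV, beside -0.06 and -0.07 over all genes. With the replicate number as a block the RWV count rose to 13, and after centring on the reference genes it was 19.

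The members lower in both vessels at 4 h were Cyp2d13, Cyp2j5, Cyp2r1, Cyp2u1 and Cyp4v3. Cyp2u1 had already reached -1.62, -2.10 and -1.59 in TCD and -1.92, -2.02 and -1.99 in RWV, changes of -1.52 ± 0.241 and -1.73 ± 0.241 (limma adjusted p = 0.000541 and 0.000186). Cyp2d13 read -1.09, -1.76 and -0.54 in TCD and -1.07, -1.40 and -1.53 in RWV. They were the largest falls called at 4 h in each vessel, by the probe sets used. The other probe set of Cyp2u1 gave -0.38 in TCD (95% interval from -0.93 to 0.17) and -0.23 in RWV (-0.79 to 0.32). That of Cyp2d13 gave -0.35 in TCD (-0.77 to 0.06) and -0.66 in RWV (-1.07 to -0.25). The 4 h fall of Cyp2u1 is therefore that of 1 probe set. Cyp2j5 read -0.50, -0.64 and -0.42 in TCD and -0.65, -0.57 and -0.69 in RWV, and most of its fall was still to come. Cyp4v3 fell by 0.32 ± 0.1 in TCD and by 0.61 ± 0.1 in RWV. Its other probe set gave -0.17 in TCD (95% interval from -0.42 to 0.07) and -0.33 in RWV (-0.57 to -0.08). That of Cyp2j5 gave -0.25 in TCD (-0.41 to -0.08) and -0.35 in RWV (-0.51 to -0.18). The TCD 4 h calls of Cyp2j5 and Cyp4v3 were each lost in 4 of the 15 fits without 1 array (adjusted p up to 0.0856 and 0.108). These arrays were t0 replicates 1 and 2 for both genes, TCD 4 h replicates 1 and 2 for Cyp2j5 and TCD 4 h replicates 1 and 3 for Cyp4v3. With only the arrays compared in the fit, the TCD 4 h calls of Cyp2d13 and Cyp2r1 were lost (limma adjusted p = 0.0948 and 0.0864). That of Cyp4v3 was lost there too, and with the mean of its probe sets, while those of Cyp2j5 and Cyp2u1 were kept in both.

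Cyp2r1 was lower than fresh at 4 h in both vessels, and at 24 h it was lower in TCD than in RWV. It read -0.49, -1.45 and -0.76 in TCD and -0.84, -0.87 and -0.94 in RWV at 4 h. At 24 h it had reached -1.70, -1.84 and -1.60 in TCD but stood at -0.91, -0.82 and -0.71 in RWV. From 4 h to 24 h the gene fell by 0.81 on the log2 scale in TCD, where it was called, and it was not called in RWV. The test of this difference is given with the vessel comparison below. Its call was lost in 14 of the 15 fits without 1 array and with only the arrays compared.

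At 4 h Cyp2d26, Cyp2j6 and Cyp4f14 were called lower in RWV and not in TCD. The difference between vessels at 4 h was called for Cyp2j6, and not for Cyp2d26 or Cyp4f14 (limma adjusted p = 0.613 and 0.383). Cyp4f14, a leukotriene B4 omega-hydroxylase, read -0.45, -0.49 and -0.35 in RWV and -0.34, -0.36 and 0.06 in TCD. The RWV call of Cyp4f14 was lost in 5 of the fits without 1 array (adjusted p up to 0.0774), that of Cyp2j6 in 6 (up to 0.0916) and that of Cyp2d26 in 2 (up to 0.0687). The arrays were any 1 of fresh or RWV 4 h for Cyp2j6, the same except RWV 4 h replicate 3 for Cyp4f14, and t0 replicate 2 or RWV 4 h replicate 3 for Cyp2d26. Cyp3a11, Cyp2e1 and Cyp2f2 stayed within 0.27 of the fresh median on all 6 arrays at 4 h. Cyp2b10 read 0.36, 1.26 and 1.70 in TCD and 0.60, 1.38 and 1.60 in RWV, overlapping its fresh arrays.

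From 4 h to 24 h, 30 members fell and 2 rose in TCD, where 56.6% of all genes were called, 19.7% lower and 36.9% higher. In RWV 25 fell and 1 rose, where 42.6% were called, 15.5% lower and 27.0% higher. The largest of these falls were those of Cyp2j5 in TCD, -4.07, and Cyp4f15 in RWV, -4.19. With the replicate number as a block the TCD comparison called 3 more members lower, Cyp2j9, Cyp4a14 and Cyp4a31 (adjusted p = 0.0151, 0.00239 and 0.00876). The call of Cyp2c68 in RWV was lost without RWV 4 h replicate 3 or RWV 24 h replicate 1 (adjusted p from 0.0573 to 0.0663).

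The design compares aggregates with monolayers at each time. At 24 h, 8 members differed between vessels, 3 higher and 5 lower in RWV, where 15.5% of all genes were called, 8.54% higher and 6.99% lower. The share of the 41 members lower in RWV was 12.2%. All 3 RWV arrays lay above all 3 TCD arrays for 6 of the 41 members and below for 7. Of all genes, 20.1% lay above and 19.7% below in this way. The median member difference was -0.03 and that of all genes -0.00, so the group as a whole did not sit higher in either vessel. The higher genes were Cyp2j5, Cyp2r1 and Cyp2c29. The lower genes were Cyp4f16, Cyp4f14, Cyp3a25, Cyp2s1 and Cyp2e1, of which Cyp2s1 was above background in TCD 24 h only.

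Among the higher genes, Cyp2j5 differed by 0.93 ± 0.151 (limma adjusted p = 0.00123) and Cyp2r1 by 0.90 ± 0.186 (adjusted p = 0.00579), 1.91-fold and 1.87-fold. The arrays of the 2 vessels did not overlap for either gene, and RWV lay above TCD in this way for 20.1% of all genes. Both calls were kept in all 24 alternative fits. The other probe set of Cyp2j5 also gave a higher value in RWV, by 0.34 with a 95% interval from 0.18 to 0.51. Cyp2c29, an epoxygenase induced through CAR, read -1.44, -0.98 and -1.19 in TCD and -0.74, -0.57 and -0.73 in RWV. Its difference of 0.52 ± 0.147 (adjusted p = 0.0316) was lost in 7 alternatives, 5 of which left out 1 of the arrays compared: TCD 24 h replicate 1 or 3, or RWV 24 h replicate 1, 2 or 3 (adjusted p from 0.0552 to 0.118).

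Cyp4f14 was lower in RWV. It read -2.99, -2.64 and -2.87 in TCD and -3.77, -3.58 and -3.90 in RWV, a difference of -0.92 ± 0.133 (limma adjusted p = 0.000611) that was kept in all 24 alternatives. Cyp4f16 was also lower in RWV, by 1.29 ± 0.255 on the log2 scale (adjusted p = 0.00436), from its values listed above. Its other probe set gave the opposite direction, 0.59 higher in RWV with a 95% interval from -0.40 to 1.57, and with the mean of its probe sets the difference was not called (adjusted p = 0.435). The vessel difference of Cyp4f16 is thus uncertain, while its rise in both vessels was seen in each probe set as a positive value.

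Cyp2e1, which oxidises ethanol and paracetamol, read -0.46, -0.54 and -0.36 in TCD and -0.84, -1.001 and -0.74 in RWV. All 3 RWV arrays lay below all 3 TCD arrays, as for 19.7% of all genes. The difference was -0.41 ± 0.0977 (limma adjusted p = 0.0143). The call was lost without TCD 24 h replicate 3 or RWV 24 h replicate 2 (adjusted p from 0.0593 to 0.0697). Cyp3a25 differed by -0.87 ± 0.249 (adjusted p = 0.0333), and this call was lost without TCD 24 h replicate 2 or 3 or RWV 24 h replicate 1 or 3 (adjusted p from 0.05 to 0.138).

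Cyp2s1 read 0.92, 0.29 and 0.47 in TCD at 24 h. Its other 12 arrays followed the array background: in RWV at 24 h the gene read -0.04, -0.05 and -0.06 beside background medians of -0.03, -0.04 and -0.05. Cyp2s1 thus passed the filter through TCD 24 h, and its calls in that group set signal against background, so they are a description with no support from the test. TCD minus fresh was 0.56 and RWV minus TCD was -0.61 on the log2 scale. The vessel call was lost with only the arrays compared in the fit (limma adjusted p = 0.0608), and after centring on the reference genes the TCD value against fresh cells was -0.05, so its direction depends on the scaling. The epithelial markers of cholangiocytes named above were also higher in TCD than in RWV at 24 h, and their part in the Cyp2s1 difference was not tested.

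**Figure D3:**
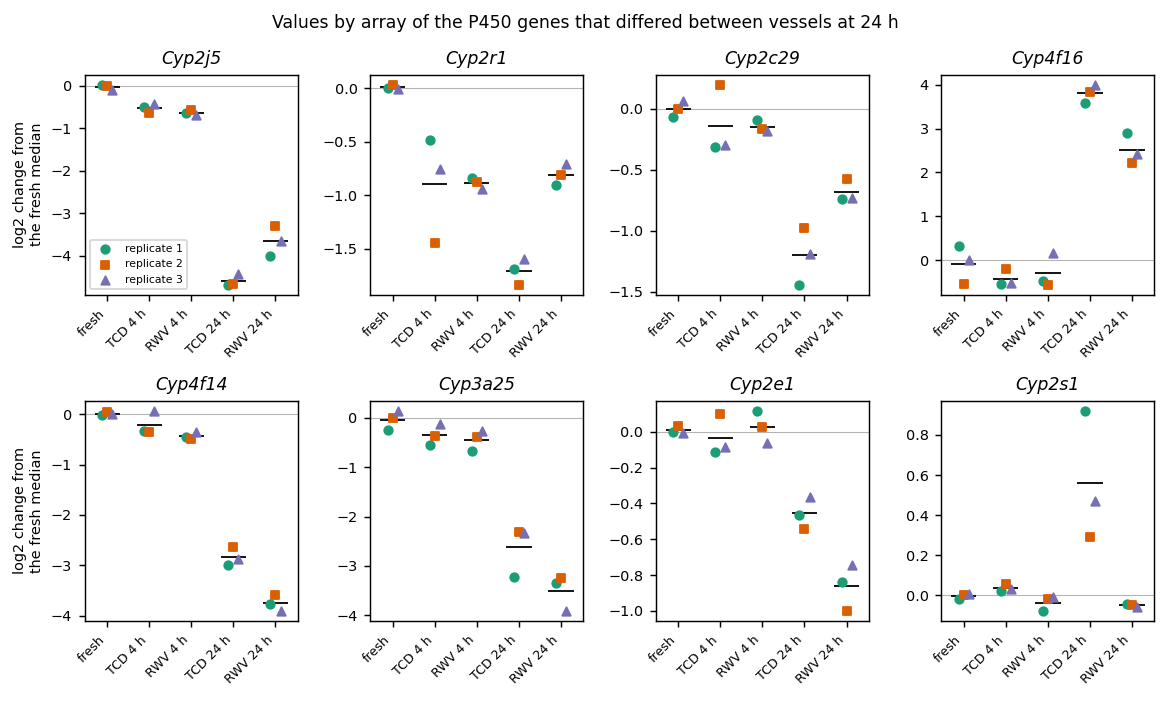
Each panel is a P450 gene that differed between vessels at 24 h, with the log2 change from the fresh median on the y axis, the 5 groups on the x axis, 1 marker per array shaped by replicate number and a bar at the group mean. Cyp2j5, Cyp2r1 and Cyp2c29 lie higher in RWV than in TCD at 24 h, and the other 5 lower, without overlap of the 3 arrays of each vessel. Such a separation held for 20.1% (RWV higher) and 19.7% (RWV lower) of all genes.

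The other 33 tested members were not called between vessels at 24 h, which does not show that they were equal. For Cyp3a11 the difference was -0.15, with a 95% interval from -0.39 to 0.10, and for Cyp2d9 -0.16, from -0.38 to 0.05. Cyp3a13 differed by 0.40, from 0.03 to 0.77 (limma adjusted p = 0.143), and Cyp2f2 by -0.30, from -0.52 to -0.07 (adjusted p = 0.0718). Cyp2j6 differed by 0.37 ± 0.119 and just missed the threshold (adjusted p = 0.055); its other probe set gave 0.76, from 0.45 to 1.07. In the fit without a block, the intervals of Cyp2b10 (-1.89 to 2.46) and Cyp4a14 (-5.59 to 5.39) were too wide to bound a difference of several-fold. For Cyp4a14, 96.9% of the sum of squares within groups lay between replicate numbers. By number, its TCD and RWV arrays at 24 h read -6.53 and -6.27, -3.18 and -3.24, and -0.89 and -1.38. Cyp2c38 read -4.07, -2.47 and -2.69 in TCD and -3.08, -1.39 and -1.40 in RWV at 24 h. Its difference of 1.12 was not called without a block (limma adjusted p = 0.327). With the replicate number as a block it was called (limma adjusted p = 4.17e-05). The numbers did not meet the criterion for pairing in this comparison.

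**Figure D4:**
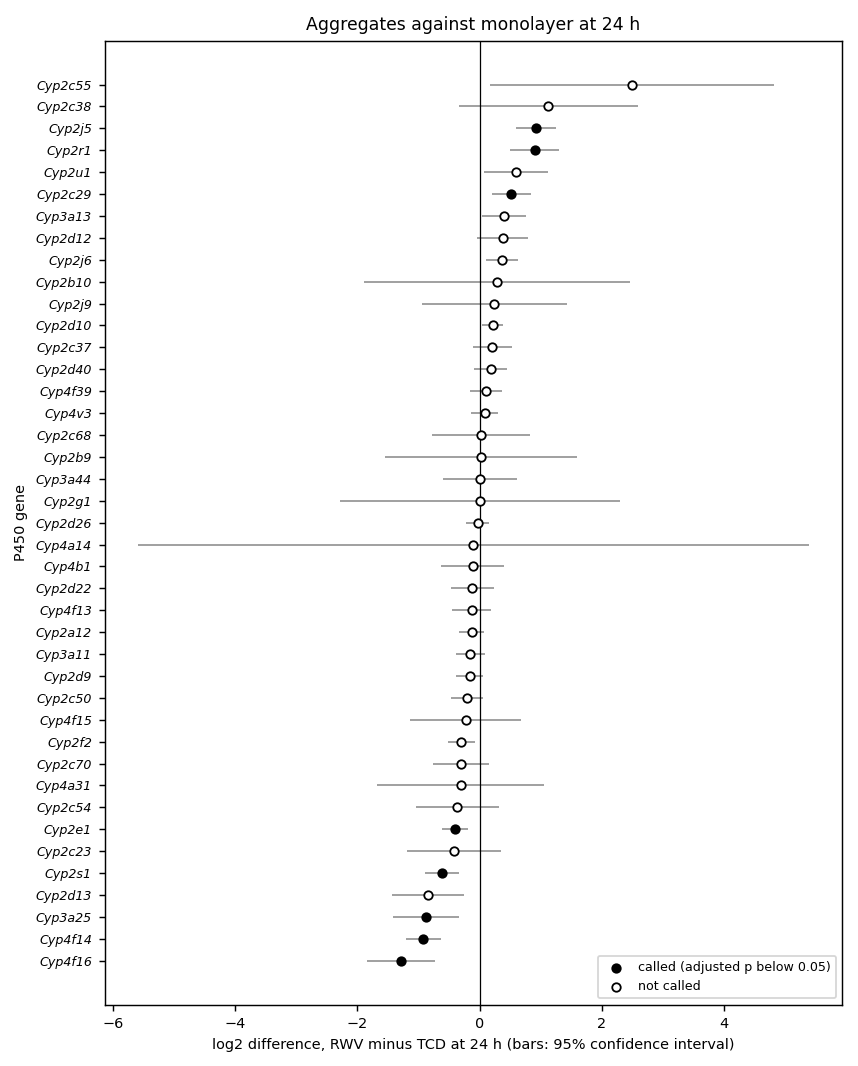
The x axis is the log2 difference RWV minus TCD at 24 h with its 95% confidence interval, 1 row per P450 gene, filled where called. The differences lie on both sides of 0, from -1.29 for Cyp4f16 to 2.49 for Cyp2c55, and most intervals include 0.

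At 4 h the vessels differed for 1 member, Cyp2j6, which was lower in RWV. Over all genes 6.41% were called, 5.72% higher and 0.691% lower. Cyp2j6, an arachidonic and linoleic acid epoxygenase, read 0.06, -0.05 and 0.36 in TCD and -0.38, -0.37 and -0.38 in RWV, a difference of -0.50 ± 0.119 (limma adjusted p = 0.0277). The call was lost without TCD 4 h replicate 3 or any 1 of the RWV 4 h arrays (adjusted p up to 0.0839). The other probe set of Cyp2j6 gave a smaller difference in the same direction, -0.27 with a 95% interval from -0.58 to 0.04. With the replicate number as a block Cyp2c38 was called as well (-0.44, adjusted p = 0.0223). After centring on the reference genes, which shifted the median of all genes by -0.15, 2 members were called.

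The change of the vessel difference from 4 h to 24 h (the interaction) was called for 6 members, 3 positive and 3 negative, where 12.9% of all genes were called, 5.01% positive and 7.85% negative. It was positive for Cyp2j5 (1.05 ± 0.213), Cyp2j6 (0.87 ± 0.169) and Cyp2r1 (0.89 ± 0.263), and negative for Cyp4f16 (-1.42 ± 0.36), Cyp4f14 (-0.70 ± 0.188) and Cyp2e1 (-0.47 ± 0.138). The limma adjusted p-values were 0.00816, 0.00619, 0.0448, 0.0233, 0.0305 and 0.0451 in this order. Those of Cyp2j5 and Cyp2j6 were kept in all alternatives. With the mean of its probe sets the interaction of Cyp4f16 was -0.33 (limma adjusted p = 0.573), and its other probe set gave the opposite direction, 0.76, so this call rests on 1 probe set. With the replicate number as a block 4 positive and 2 negative members were called. Cyp2c38 was added (1.56, limma adjusted p = 0.000178) and Cyp2e1 was lost (adjusted p = 0.0597). Of the 15 fits without 1 array, the call of Cyp2r1 was lost in 14 (adjusted p up to 0.10), that of Cyp2e1 in 12 (up to 0.109), that of Cyp4f14 in 8 (up to 0.0745) and that of Cyp4f16 in 5 (up to 0.0609). Cyp2r1 was still called without TCD 4 h replicate 2 alone, and Cyp2e1 without TCD 4 h replicate 2, RWV 24 h replicate 3 or t0 replicate 3. For Cyp4f14 the arrays were TCD 4 h replicates 1 and 2, RWV 4 h replicates 1 and 3, TCD 24 h replicates 2 and 3 and RWV 24 h replicates 1 and 3. For Cyp4f16 they were RWV 4 h replicate 3 and replicates 2 and 3 of both 24 h groups. Centring on the reference genes shifted the median interaction of all genes by 0.12 and gave 4 positive and 1 negative members.

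Several members differed more between replicates of 1 group than between groups. Cyp4a14, a PPARα target and fatty acid omega-hydroxylase, read -4.94, 0.00 and 2.24 in fresh cells, -5.33, -0.54 and 1.99 in TCD at 4 h, and -5.82, -0.49 and 1.95 in RWV at 4 h. At 24 h it read -6.53, -3.18 and -0.89 in TCD and -6.27, -3.24 and -1.38 in RWV. Replicate 1 was lowest and replicate 3 highest in each of the 5 groups. The changes at 24 h, -2.63 ± 2.52 in TCD and -2.73 ± 2.52 in RWV, were not called (limma adjusted p = 0.405 and 0.402). With the replicate number as a block both were called lower (standard error 0.485, limma adjusted p = 0.000763 in TCD and 0.000746 in RWV). The numbers did not meet the criterion for pairing in either comparison.

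Cyp2b9, a female-predominant gene in mouse liver, stood at 2.76 in fresh replicate 3, 1.62 in TCD 4 h replicate 3 and 1.89 in RWV 4 h replicate 3. All its other arrays lay between -0.11 and 0.05. Cyp2g1, best known from the olfactory mucosa, read 3.52, 2.64 and 2.62 on the same 3 arrays, and at 24 h every array lay between -0.59 and -0.55. Cyp2j9 read 1.41, 1.27 and 2.17 on these 3 arrays, above replicates 1 and 2 of each group. Of the female-biased list, 4 were tested (Cyp2b9, Cyp2b10, Cyp3a44 and Cyp4a14) and Cyp3a44 was the 1 of them called lower at 24 h, in both vessels. Cyp3a44 passed the filter through the fresh arrays only, so its calls add no support. All 3 genes tested of the male-biased list (Cyp2d9, Cyp2u1 and Cyp4a12a, the last outside the group) were called lower in both vessels. Over all genes 23.8% were lower in TCD and 19.6% in RWV.

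**Figure D5:**
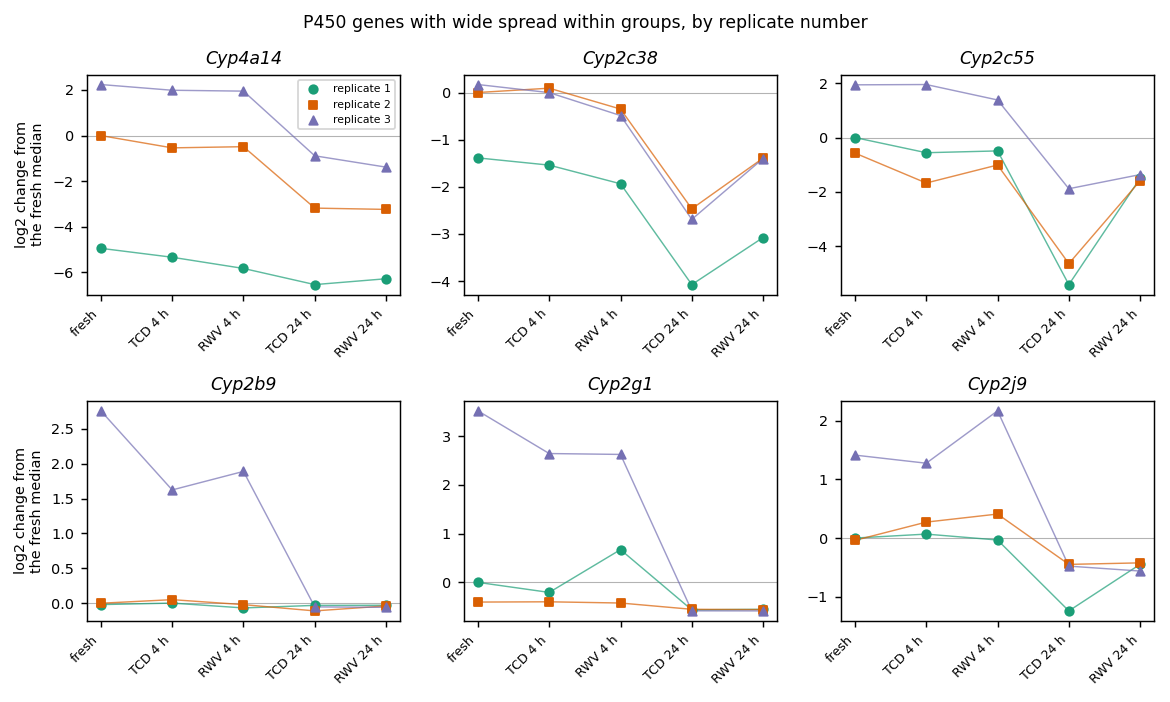
The y axis is the log2 change from the fresh median for 6 P450 genes, the x axis the 5 groups, and lines join arrays that carry the same replicate number, whose meaning the labels do not state. Replicate 3 is the highest array of fresh, TCD 4 h and RWV 4 h for Cyp4a14, Cyp2c55, Cyp2b9, Cyp2g1 and Cyp2j9, and replicate 1 the lowest of each group for Cyp4a14 and Cyp2c38.

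Genes that regulate or serve P450 enzymes were examined from lists. Of 28 regulators tested, 18 were lower and 4 higher than fresh in TCD at 24 h, and 16 lower and 4 higher in RWV. Over all genes 23.8% were lower and 33.6% higher in TCD, and 19.6% and 31.5% in RWV. Between vessels at 24 h 11 regulators were called higher in RWV and none lower, where 8.54% of all genes were higher and 6.99% lower. At an unadjusted p below 0.05 in limma there were 16, counted in either direction. Those called included Nr1i2, Ppara and Hnf4a. Nr1i2, which encodes PXR, read -4.40, -5.07 and -4.30 in TCD and -2.40, -2.01 and -2.41 in RWV, a difference of 2.32 ± 0.265. Ppara differed by 2.30 ± 0.505 and Hnf4a by 1.37 ± 0.228. The others were Cebpa (1.37), Esr1 (2.88), Hlf (2.60), Ncoa1 (0.65), Nr1h3 (1.09), Nr1h4 (2.36), Rxra (1.12) and Stat5b (0.89). Nr1i3, which encodes CAR, fell in both vessels, to -4.65, -4.39 and -4.69 in TCD and -5.58, -4.79 and -5.16 in RWV, and its vessel difference of -0.60 ± 0.254 was not called (adjusted p = 0.143). At 4 h Foxa2 was higher in RWV (1.61 ± 0.265) and Nr3c1, the glucocorticoid receptor, lower (-0.94 ± 0.254).

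Beside these, the list of P450s known as CAR and PXR targets had 10 of 12 tested members lower in TCD and 8 in RWV, with 1 higher and 1 lower between vessels at 24 h (Cyp2c29 and Cyp3a25). That list includes Cyp3a11 and Cyp3a44, whose calls add no support. The fatty acid hydroxylases (family 4 and Cyp2u1) had 6 of 10 lower and 1 higher in each vessel, and 2 lower in RWV than in TCD (Cyp4f14 and Cyp4f16). For both lists, the shares over all genes were 23.8% lower and 33.6% higher in TCD, and 19.6% and 31.5% in RWV. Between vessels they were 8.54% higher and 6.99% lower.

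Of 16 tested genes for electron supply and haem, 12 were lower and 1 higher than fresh in TCD at 24 h, and 8 lower and 2 higher in RWV. Over all genes 23.8% were lower and 33.6% higher in TCD, and 19.6% and 31.5% in RWV. Between vessels at 24 h 8.54% of all genes were higher in RWV and 6.99% lower. Por, the P450 oxidoreductase, was not among the genes tested. Alas1, the rate-limiting enzyme of haem synthesis, was not called in either vessel (-1.02 ± 0.57 and -1.13 ± 0.57, limma adjusted p = 0.147 and 0.12). Hmox1, which degrades haem, rose by 5.31 ± 0.34 in TCD and 4.17 ± 0.34 in RWV, and differed between vessels by -1.13 ± 0.34 (RWV minus TCD). Higher in RWV than in TCD at 24 h were Blvrb (1.41), Cyb5r3 (0.85), Fech (0.49), Ppox (1.14) and Urod (0.86), of which the last 3 are enzymes of haem synthesis. At 4 h none of the 16 differed between vessels, where 6.41% of all genes were called. None of the 16 reached an unadjusted p below 0.05 in limma.

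The neighbourhood of the genes on the chromosomes gave further contrasts. The 8 members of the Cyp2d cluster on chromosome 15 lie in the order Cyp2d22, Cyp2d10, Cyp2d9, Cyp2d12, Cyp2d34, Cyp2d13, Cyp2d40 and Cyp2d26. Cyp2d13, with its changes of -4.57 and -5.41, lies between Cyp2d34, which was at background, and Cyp2d40, which was not called (-0.30 and -0.11). In the Cyp2c cluster on chromosome 19 the 8 tested genes changed by -4.43 to -1.12 in TCD and by -2.45 to -0.68 in RWV. In the Cyp2j cluster on chromosome 4, Cyp2j5 fell to 4.24% and 8.08% of its fresh signal and Cyp2j6 to 29.0% and 37.5%. Their other probe sets fell less, with log2 changes of -2.14 and -1.80 for Cyp2j5 and -1.40 and -0.64 for Cyp2j6. Near-identical gene copies may share probes, which the probe set suffix _s_at flags for Cyp2c23 and Cyp2c65. The suffix _a_at, carried by the probe sets of Cyp2d9 and Cyp2f2, does not by itself flag such sharing.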

How the data were processed

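Per the labels' protocols, RNA was extracted with RNeasy columns and labelled with biotin by MessageAmp II. The deposited values are log2 signals made by the authors with GCRMA, per the submitters' processing notes; for the version of GCRMA none was stated in the labels. In all 45101 probe sets the fresh median was 0, so that median had been subtracted; the base of the logarithm is taken from GCRMA's scale. Differences are therefore comparable within a gene, not levels between genes.

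The P450 genes and the gene lists were chosen with earlier results of these data known. Probe sets with 1 symbol in the platform annotation (34945) were used, 1 per gene by largest SD. One counted as background where it followed the array background (correlation above 0.8 with the per-array median taken over the 20% of probe sets that varied least) and had an SD below 0.5, which left 12157 of 18193 genes. Groups were compared with limma 3.58.1 (R 4.3.3; lmFit, contrasts.fit, eBayes) on all 15 arrays. The fit was tested on simulated data. Per-array values are given for members called between vessels, those with the 5 largest called changes from fresh cells, and those fixed by role. The number of arrays limits the precision.

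Samples of the same replicate number deviated together (correlation above 0.1 for every number) in 5 of 10 pairs of groups: fresh with TCD 4 h and RWV 4 h, TCD 4 h with RWV 4 h, and TCD 24 h with both 4 h groups. The labels do not say what a number marks. The blocked fit is given beside results for these pairs and for the interaction, which uses some of them. Alternatives changed the filter, the probe set, the arrays in the fit, the block, array weights, centring and the eBayes prior, and left out each array in turn. Probe sets with several symbols, such as Cyp2a5 with Cyp2a4 and Cyp4a31 with Cyp4a10, were left out.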

Additional observations from a re-analysis of the deposited data

Results flagged for a closer look

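For 6 P450 genes the difference between vessels (RWV minus TCD) changed between 4 h and 24 h by a test of that change in the limma fit. On the log2 scale the change was 1.05 for Cyp2j5, 0.87 for Cyp2j6 and 0.89 for Cyp2r1. It was -1.42 for Cyp4f16, -0.70 for Cyp4f14 and -0.47 for Cyp2e1. The calls of Cyp2j5 and Cyp2j6 were kept in all 24 alternatives. That of Cyp2r1 was lost in 14 of the 15 fits without 1 array, and that of Cyp2e1 in 12. The value of Cyp4f16 is that of 1 probe set: its other probe set gave 0.76, and the mean of the probe sets -0.33, which was not called (limma adjusted p = 0.573). Groups of 3 arrays were too small to look for a single array far from the others.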

How the results depend on the processing

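Of 149 calls of a member in a comparison, 123 were kept in all 24 alternatives and 26 were lost in at least 1. The direction turned for 1, Cyp2s1 in TCD 24 h against fresh cells, which was -0.0494 after centring on reference genes. Counts of called members that moved by over 1.5 times follow. Without the background filter, 9 members were called between vessels at 4 h, 10 in the interaction and 9 in TCD 4 h against fresh cells. With only the arrays compared in the fit, 0 were called between vessels at 4 h in limma (2 at an unadjusted p below 0.05, as with all arrays) and 2 in TCD 4 h against fresh cells. After centring, 2 were called between vessels at 4 h and 19 in RWV 4 h against fresh cells. With array weights, 13 were called between vessels at 24 h. The cause of these shifts was not tested.

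With the replicate number as a block, 2 members were called between vessels at 4 h and 13 in RWV 4 h against fresh cells. The numbers did not meet the criterion for pairing between the vessels at 24 h, or between RWV 24 h or TCD 24 h and fresh cells. There the block added Cyp2c38 (1.12), Cyp2c54 (-0.36) and Cyp2c55 (2.49) between vessels, as RWV minus TCD on the log2 scale. Against fresh cells the block added Cyp4a14 among others in both vessels, and Cyp2c38 (-1.55) and Cyp2c55 (-1.94) in RWV. All 15 arrays correlated best with their own number, a hint from the data and not from the design.

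Leaving out each array in turn, 0 to 1 members were called between vessels at 4 h, 6 to 10 at 24 h and 2 to 5 in the interaction. Against fresh cells the ranges were 3 to 5 (TCD 4 h), 5 to 8 (RWV 4 h), 33 to 34 (TCD 24 h) and 28 to 30 (RWV 24 h). Between 4 h and 24 h they were 32 to 34 in TCD and 25 to 28 in RWV. Signal over background could not be read from values without a level.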

Other observations

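The spread within groups followed the replicate number for some P450 genes more than for genes in general. Of a member's sum of squares within groups, the median share between replicate numbers was 37.0%, against 25.2% over all genes tested. If the numbers carried nothing, the mean share, not the median, would be 20%. The share exceeded 50% in 17 of 41 members (41.5%) and in 14.9% of genes. The share was 99.2% for Cyp2c38, 96.9% for Cyp4a14, 94.6% for Cyp2c54 and 92.0% for Cyp2c68, and 3.48% for Cyp2b10. Replicate numbers are not explained in the labels, and these shares are a description without a test.

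Outside the rule, because its symbol ends in a letter, stood Cyp4a12a, a male-predominant fatty acid hydroxylase. It fell by 2.09 in TCD and by 2.30 in RWV at 24 h on the log2 scale, and its vessel difference was -0.21, with a 95% interval from -0.57 to 0.16.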
